A study of Mus musculus with 4 samples.

Results

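Chemokines are small secreted proteins that steer the migration of leukocytes, and 10 of their genes, Ccl2, Ccl3, Ccl4, Ccl5, Ccl6, Ccl9, Cxcl1, Cxcl2, Cxcl10 and Cxcl16, were taken by symbol from deposited tables of 54532 genes. All 10 were listed in the tables, which hold the RNA of PMN-MDSC purified from spleens of newborn C57BL/6 mice. PMN-MDSC, polymorphonuclear myeloid-derived suppressor cells, resemble neutrophils and hold back T cell responses. The NECA group (2 libraries) was exposed to NECA, an agonist of adenosine receptors that cells break down slowly, over 5 days, and the DMSO group (2 libraries) was kept without it, in the solvent DMSO. The dose, the number of mice behind a library, and whether replicates came from separate animals or cultures are not stated in the labels, so p-values measure the spread between these samples, which may be technical. Total counts were 18712625 and 15864120 in NECA replicates 1 and 2, against 18583918 and 18492030 in DMSO replicates 1 and 2. All 14 neutrophil markers were high enough to test, but so were 8 of 8 erythroid markers, so this does not identify the cells. In CPM (counts scaled to library size, with TMM factors), neutrophil markers summed to 137000 and 137900 with NECA, against 123100 and 128700 with DMSO. Every other list of cell type markers summed to at most 1385 CPM in any library. The neutrophil sums in the NECA libraries were 109% and 109.5% of the DMSO mean. Mpo and Elane were scarce (means of 7.96 and 2.32 CPM), and only they had log2 fold changes below 0 (-1.19 and -0.69, neither passing the test).

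Chemokines fall into families named for the spacing of their first cysteines. Most CC chemokines draw monocytes, macrophages and lymphocytes, while the CXC chemokines Cxcl1 and Cxcl2 draw neutrophils. Neutrophils respond to chemokines and also make some of them, mostly after microbial products or cytokines switch on NF-kB. Cyclic AMP, which Gs-coupled adenosine receptors raise, is known to restrain the output of several inflammatory chemokines in myeloid cells.

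Ccl6 was the dominant chemokine transcript of these cells, with and without NECA, and no member passed the test for a difference between NECA and DMSO. Of the 10 members, 4 (Ccl6, Cxcl2, Ccl3 and Ccl9) had at least 10 counts in every library, 8 had at least 1 count in every library, and Cxcl1 had 0 counts in all 4. Summed over the members, levels in CPM (counts scaled to library size, with TMM factors) were 124 and 134 in the NECA libraries, against 136 and 157 in the DMSO libraries. Both NECA sums thus lay below both DMSO sums, an order that 24.3% of tested genes showed singly. Ccl6 made up 82.8% to 89.1% of the member counts of a library, so the sums mostly follow Ccl6, whose groups overlapped. Without Ccl6 the sums were 17.85 and 14.6 CPM in the NECA libraries, against 22.3 and 27.0 CPM in the DMSO libraries.

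Levels were compared between genes as FPKM, which scales for gene length. Ccl6 averaged 65.3 FPKM over the 4 libraries, which placed it at or above 95.2% of the tested genes. Ccl3 and Cxcl2 followed at 5.16 FPKM each and could not be ordered, since their ranges over libraries (1.86 to 7.32 and 4.33 to 7.19 FPKM) overlapped. Ccl9 came next at 1.33 FPKM (0.915 to 1.54), and its range overlapped that of Ccl4 (mean 0.695, 0.321 to 1.34). Ccl5, Cxcl16, Cxcl10 and Ccl2 had means of 0.456, 0.161, 0.108 and 0.0801 FPKM, and each of their ranges overlapped that of the next. In this order, the range of Ccl6 lay above those of Ccl3 and Cxcl2, and both of these lay above that of Ccl9.

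**Figure D1:**
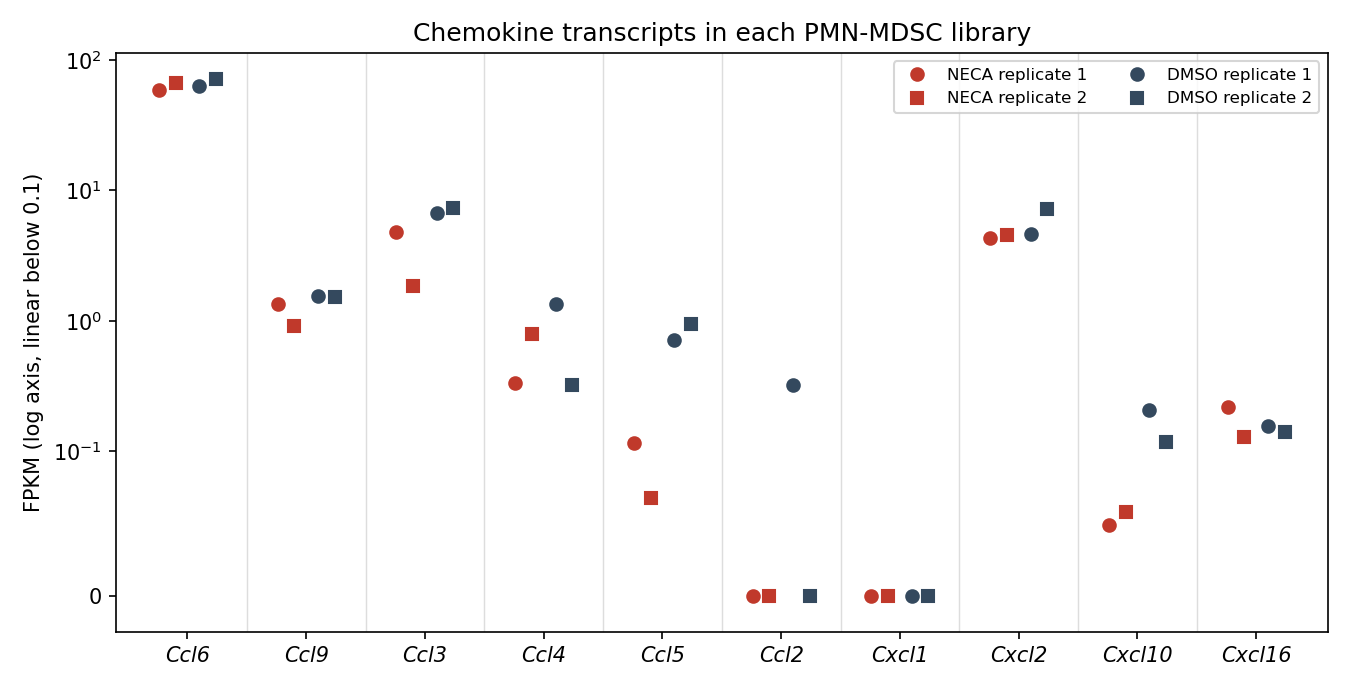
FPKM of the 10 chemokine genes in each library (log axis, linear below 0.1), NECA in red and DMSO in dark blue, circles for replicate 1 and squares for replicate 2. Ccl6 stood at 59.2 to 71.9 FPKM in every library, Cxcl1 was at 0 in all 4, and Ccl2 was above 0 in DMSO replicate 1 alone.

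For the comparison of NECA with DMSO, 5 members (Ccl3, Ccl5, Ccl6, Ccl9 and Cxcl2) passed the filter on low counts and were tested with edgeR's quasi-likelihood test. Ccl5 (2 and 1 counts with NECA, 13 and 17 with DMSO) passed this filter through the DMSO libraries alone. A gene this scarce is tested only if 1 group is high, so Ccl5 adds no support to the counts of members below. At an adjusted p under 0.05, 0 of the 5 were higher and 0 were lower, where 1.33% of all 13083 tested genes were called in either direction (0.352% higher and 0.978% lower). At an unadjusted p under 0.05, 2 of the 5 passed, Ccl3 and Ccl5, both lower with NECA, against 8.88% of all tested genes lower at that level. DESeq2 on the same genes also called 0 and had 2 at an unadjusted p under 0.05. All 5 log2 fold changes were below 0, as were 51.4% of those of all tested genes, with a median of -0.43 where that of all tested genes was -0.007. In 4 of the 5 (Ccl3, Ccl5, Ccl9 and Cxcl2) both NECA libraries lay below both DMSO libraries, a pattern that 24.3% of all tested genes showed. The members were chosen with results of these data known, so no test of them as a set was made.

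**Figure D2:**
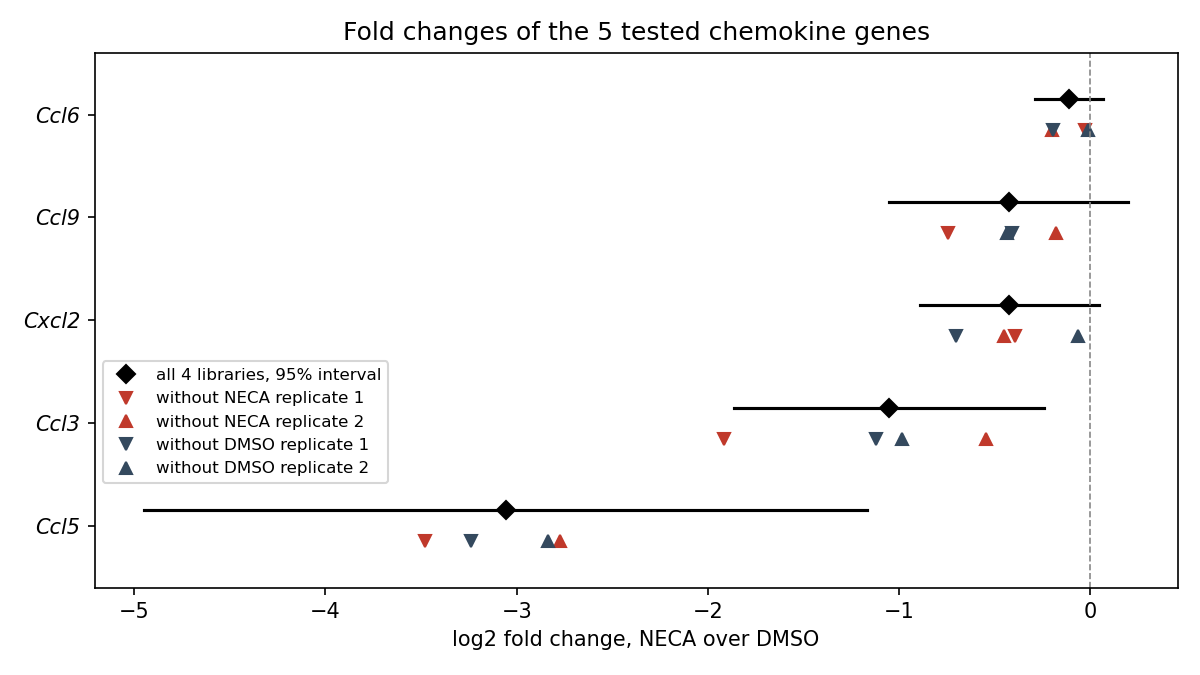
Log2 fold change, NECA over DMSO, of the 5 tested chemokine genes: black diamonds with 95% intervals from all 4 libraries, and triangles with each library left out. Intervals of Ccl3 (-1.86 to -0.24) and Ccl5 (-4.95 to -1.17) lay below 0 before adjustment over all genes, and the values of Ccl3 spread from -1.91 to -0.55 with the library left out.

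Ccl6 and Ccl9 are neighbouring rodent CC chemokines that act on the receptor Ccr1 and draw macrophages and other myeloid cells. With Ccl5, Ccl3 and Ccl4 they lie in a cluster on chromosome 11, from 83525778 to 83664683 (GRCm38), where 9245 bases separate Ccl9 from Ccl6. Ccl6 (Ensembl gene ENSMUSG00000018927) had 106 and 120 CPM in the NECA libraries, against 114 and 130 CPM in the DMSO libraries. The groups overlapped, since NECA replicate 2 was above DMSO replicate 1. Its log2 fold change was -0.11 (SE 0.08, 95% interval -0.29 to 0.07, adjusted p = 0.576). Ccl9 (ENSMUSG00000019122) had 4.12 and 2.78 CPM in the NECA libraries, against 4.70 and 4.62 CPM in the DMSO libraries. The NECA libraries lay below both DMSO libraries but differed from each other by more than the DMSO libraries did. The log2 fold change of Ccl9 was -0.43 (SE 0.29, 95% interval -1.05 to 0.20, adjusted p = 0.53). In FPKM, Ccl6 exceeded its neighbour Ccl9 43.7-fold and 73.0-fold in the NECA libraries, against 41.1-fold and 47.6-fold in the DMSO libraries. A stretch of Ccl9, 1.97% of its 50-base words, is a repeat that 463 other annotated genes share.

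Ccl3, Ccl4 and Ccl5 are inflammatory CC chemokines, of which Ccl3 and Ccl5 act on Ccr1. Activated macrophages, neutrophils and basophils are known sources of Ccl3 and Ccl4, and T and NK cells are known sources of Ccl5. Ccl3 (ENSMUSG00000000982, chromosome 11, 83647844 to 83649355) had 67 and 22 counts in the NECA libraries, against 98 and 106 counts in the DMSO libraries. These were 3.68 and 1.42 CPM with NECA, against 5.12 and 5.63 CPM with DMSO. Both NECA libraries were below both DMSO libraries, and NECA replicate 2 was far below NECA replicate 1. The NECA libraries differed 2.59-fold from each other (95% exact binomial interval 1.58 to 4.40), while the DMSO libraries differed 1.10-fold (0.827 to 1.46). Such intervals cover counting error only.

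The log2 fold change of Ccl3 was -1.05 (SE 0.37, 95% interval -1.86 to -0.24, adjusted p = 0.185, edgeR). Leaving out NECA replicate 1 gave -1.91 (adjusted p = 0.000552), and leaving out NECA replicate 2 gave -0.55 (adjusted p = 0.612). The size of the difference for Ccl3 thus rested on NECA replicate 2, and leaving out NECA replicate 1 also removes the spread between the NECA libraries. It stood at -1.12 (adjusted p = 0.329) without DMSO replicate 1 and -0.98 (adjusted p = 0.427) without DMSO replicate 2.

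Ccl5 (ENSMUSG00000035042, chromosome 11, 83525778 to 83530518) had 2 and 1 counts in the NECA libraries, against 13 and 17 counts in the DMSO libraries. Every NECA value was thus far below every DMSO value, at levels near the limit of detection. Its fitted log2 fold change was -3.06 (SE 0.87, 95% interval -4.95 to -1.17, adjusted p = 0.107, edgeR). The ratio of the summed counts, NECA over DMSO, was 0.113 (95% exact binomial interval 0.022 to 0.362). With any of the 4 libraries left out, Ccl5 lay between -3.48 and -2.78 and did not pass (adjusted p = 0.152 to 0.333).

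Ccl4 (ENSMUSG00000018930), 13228 bases from Ccl3, had 4 and 8 counts in the NECA libraries, against 17 and 4 counts in the DMSO libraries. The groups overlapped, and DMSO replicate 2 was as low as the lower NECA library. Ccl4 was too low to test, and the ratio of its summed counts was 0.644 (95% exact binomial interval 0.289 to 1.37). Ccl2 (ENSMUSG00000035385), the main monocyte attractant through Ccr2, had 0 and 0 counts in the NECA libraries, against 7 and 0 counts in the DMSO libraries. A single library thus carried all Ccl2 counts, and Ccl2 was too low for the main fit. The ratio of its summed counts was 0 (95% exact binomial interval 0 to 0.782). That interval takes no account of the difference between the DMSO libraries.

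Markers of monocytes and macrophages fell with NECA, and those of several other cell types had lower levels in both NECA libraries. In bulk samples such as these, fewer cells of a type and less RNA per cell cannot be told apart. Of 23 tested markers of monocytes and macrophages, 15 fell and 0 rose, and the median of the 23 log2 fold changes was -1.49. Relative to the DMSO mean, the median marker of this list stood at 37.9% and 31.3% in the NECA libraries. The list summed to 992.5 and 896 CPM in the NECA libraries, against 1385 and 1299 CPM in the DMSO libraries. Its most abundant gene, Ly6c2, stood at 582 and 574.5 CPM with NECA, against 522 and 549 CPM with DMSO. The log2 fold change of Ly6c2 was 0.11 (adjusted p = 0.304, edgeR), while 22 of the 23 tested markers were below 0. Without Ly6c2 the sum was 410.3 and 322 CPM in the NECA libraries, against 863 and 750.4 CPM in the DMSO libraries. Without DMSO replicate 1, 11 markers of the list fell, and with limma on FPKM 0 did. Vsig4, a complement receptor of resident macrophages, was at 0 in both NECA libraries and in DMSO replicate 1, and had 4 counts in DMSO replicate 2.

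Of the markers of T and NK cells, 7 were tested and 0 called by edgeR or DESeq2, while 5 were lower at an unadjusted p under 0.05. Of all tested genes, 8.88% were lower at that level, the share to set beside such counts in the other marker lists. Their median log2 fold change was -1.51, and the median marker stood at 43.0% and 27.2% of the DMSO mean in the NECA libraries. The list summed to 19.1 and 19.6 CPM in the NECA libraries, against 32.3 and 33.2 CPM in the DMSO libraries. Without its most abundant gene Cd3d, a chain of the T cell receptor complex, it summed to 5.22 and 3.94 CPM with NECA, against 16.5 and 13.8 CPM with DMSO. Cd3e and Klrb1c were at 0 in both NECA libraries, where DMSO replicates 1 and 2 had 15 and 6 counts of Cd3e and 3 and 9 counts of Klrb1c. Ncr1 and Gzmb were at 0 in both NECA libraries and in DMSO replicate 2, with 6 and 3 counts in DMSO replicate 1. With 1 library left out, 0 to 2 of the 7 were lower.

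Counts of calls in the B cell, basophil and erythroid lists moved with the library left out. Markers of B cells summed to 74.6 and 13.2 CPM in the NECA libraries, against 136 and 143 CPM in the DMSO libraries. Of 10 tested B cell markers 1 was lower by edgeR and 0 by DESeq2, where 10 were lower without NECA replicate 1, 7 without NECA replicate 2, and 0 without either DMSO library. Markers of basophils, mast cells and eosinophils summed to 89.6 and 64.3 CPM in the NECA libraries, against 121 and 127 CPM in the DMSO libraries. Of 10 tested 1 was lower, where 4 were lower without either NECA library and 0 without either DMSO library. Erythroid markers summed to 324.8 and 17.2 CPM with NECA, against 1144 and 464.5 CPM with DMSO. Of 8 tested 0 were called by edgeR or DESeq2 and 8 were lower at an unadjusted p under 0.05, while 7 were lower without NECA replicate 1, 5 without NECA replicate 2, and 0 without either DMSO library. With the replicate number as a block, 8 B cell, 2 basophil and 7 erythroid markers were lower. Dendritic cell markers (4 tested, 0 called, 0 at an unadjusted p under 0.05) summed to 16.9 and 10.9 CPM with NECA, against 19.4 and 15.6 CPM with DMSO. Stromal and endothelial markers (2 tested, 0 called, 1 lower at an unadjusted p under 0.05) summed to 22.1 and 14.2 CPM with NECA, against 21.4 and 27.5 CPM with DMSO.

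Relative to the DMSO mean, Ccl3 stood at 68.5% and 26.4% and Ccl5 at 13.9% and 8.17% in the NECA libraries. The median macrophage marker was thus below Ccl3 in NECA replicate 1 and above it in NECA replicate 2. The median marker of basophils, mast cells and eosinophils stood at 74.6% and 55.2% in NECA replicates 1 and 2, above Ccl3 in both. Ccl5 was below the median marker of macrophages and of T and NK cells in both NECA libraries. The part of these cells in the values of Ccl3 and Ccl5 was not tested.

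**Figure D3:**
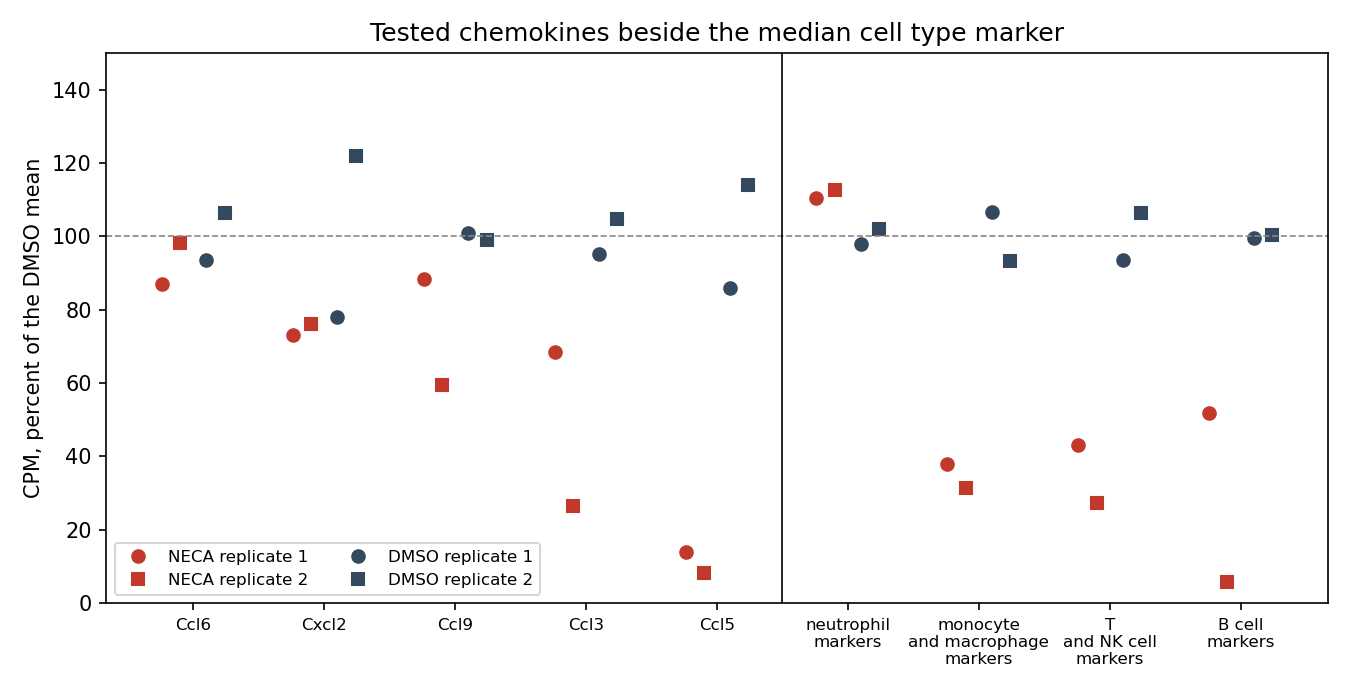
CPM of the 5 tested chemokine genes (left of the line) and of the median tested marker in 4 lists of cell type markers (right of it) as percent of the DMSO mean, NECA in red and DMSO in dark blue, with circles for replicate 1 and squares for replicate 2. In NECA replicate 2, Ccl3 stood at 26.4%, the median macrophage marker at 31.3% and the median B cell marker at 5.67%, while the median neutrophil marker stood at 113%.

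Cxcl1 and Cxcl2 are neighbouring CXC chemokines that draw neutrophils through Cxcr2, and 10755 bases on chromosome 5 separate them. RefSeq promoter windows (GRCm38.p6) were at hand for 6 members, and 4 are shown because they set the silent Cxcl1 beside Cxcl2 and Cxcl10, which share a motif with it, and beside Ccl6, which was the most abundant. Each runs from 250 to 31 bases before the RefSeq start, 5′ to 3′ on the strand of the gene, with matches to the κB consensus of NF-kB in capitals. The RefSeq start can differ from the GENCODE start used for gene positions, which for Cxcl2 is 90903871.
Cxcl1, chr5:90890995-90891214, plus strand: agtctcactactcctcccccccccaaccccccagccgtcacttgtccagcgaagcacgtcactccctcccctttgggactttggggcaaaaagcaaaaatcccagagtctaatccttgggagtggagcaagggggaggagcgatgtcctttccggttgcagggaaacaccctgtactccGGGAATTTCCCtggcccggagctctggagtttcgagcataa
Cxcl2, chr5:90903649-90903868, plus strand: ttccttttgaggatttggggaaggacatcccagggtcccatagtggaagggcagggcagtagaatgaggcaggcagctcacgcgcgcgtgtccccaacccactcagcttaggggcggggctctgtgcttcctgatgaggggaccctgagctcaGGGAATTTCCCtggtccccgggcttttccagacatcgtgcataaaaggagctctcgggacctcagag
Cxcl10, chr5:92348920-92349139, minus strand: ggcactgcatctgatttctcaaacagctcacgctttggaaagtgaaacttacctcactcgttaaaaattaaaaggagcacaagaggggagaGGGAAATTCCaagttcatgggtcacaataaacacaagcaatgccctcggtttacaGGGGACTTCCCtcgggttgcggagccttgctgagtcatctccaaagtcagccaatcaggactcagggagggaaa
Ccl6, chr11:83593118-83593337, minus strand: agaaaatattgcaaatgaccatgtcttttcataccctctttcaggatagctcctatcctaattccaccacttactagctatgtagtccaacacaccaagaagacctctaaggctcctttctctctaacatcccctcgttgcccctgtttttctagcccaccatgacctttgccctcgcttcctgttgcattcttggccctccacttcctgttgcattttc
Both strands were searched for the κB consensus and overlapping placements were counted. Cxcl1 and Cxcl2 each held the match GGGAATTTCC, inside a shared run of 14 bases, GGGAATTTCCCTGG. All 3 CXC windows held a κB match and none of the 3 CC windows (Ccl3, Ccl6 and Ccl9) did, where 6.34% of 32851 promoter windows of the same length held one. The AP-1 motif TGANTCA was found in Cxcl10 and Ccl9 (6.12% of all windows) and the cyclic AMP response element TGACGTCA in 0 of the 6 (1.14%). A match describes the letters of the window, not a bound site.

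Cxcl1 (ENSMUSG00000029380) had 0 counts in all 4 libraries. A count of 0 allows up to 3 counts, which was 0.165 and 0.194 CPM in the NECA libraries and 0.157 and 0.159 CPM in the DMSO libraries. Cxcl2 (ENSMUSG00000058427, chromosome 5, 90903871 to 90905938) had 163 and 144 counts in the NECA libraries, against 183 and 281 counts in the DMSO libraries. In CPM it stood at 8.95 and 9.30 with NECA, against 9.56 and 14.9 with DMSO. The lower DMSO library was thus close to both NECA libraries, and DMSO replicate 2 stood above the other 3. The log2 fold change of Cxcl2 was -0.42 (SE 0.21, 95% interval -0.89 to 0.05, adjusted p = 0.376). It was -0.06 (adjusted p = 0.943) without DMSO replicate 2 and -0.70 (adjusted p = 0.187) without DMSO replicate 1. The DMSO libraries differed 1.56-fold (95% exact binomial interval 1.29 to 1.89), more than counting error gives, while the NECA libraries differed 1.04-fold (0.825 to 1.31). Of the 50-base words of Cxcl2, 5.84% also occur in Cxcl3, which had 1 count in all, in NECA replicate 1.

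Cxcl10 (ENSMUSG00000034855), an interferon-induced ligand of Cxcr3 on T and NK cells, had 2 and 2 counts in the NECA libraries, against 9 and 5 counts in the DMSO libraries. Both NECA libraries were below both DMSO libraries, but Cxcl10 was too low to test. The ratio of its summed counts was 0.322 (95% exact binomial interval 0.0772 to 1.03). Cxcl16 (ENSMUSG00000018920), a membrane-anchored ligand of Cxcr6, had 12 and 6 counts in the NECA libraries, against 9 and 8 counts in the DMSO libraries, which overlapped. The ratio of its summed counts was 1.19 (95% exact binomial interval 0.58 to 2.46). Counts of Cxcl10 and Cxcl16 are uncertain, because an opposite-strand gene overlaps 133 and 552 of their exon bases and the use of strand in counting is not given in the sources used here. Adam10 and Adam17, the proteases that shed Cxcl16, stood at log2 fold changes of 0.05 (adjusted p = 0.762) and 0.10 (adjusted p = 0.624).

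Among the 23 chemokine receptor genes, 14 were tested, of which 0 rose and 1 fell. With DESeq2 3 were higher and 1 lower, without NECA replicate 1 it was 3 and 3, without DMSO replicate 1 it was 0 and 0, and with the replicate number as a block 2 and 2. Transcripts of 2 receptors of members, both typical of neutrophils, were abundant. Of these, Cxcr2 is itself in the list of neutrophil markers, whose median log2 fold change was 0.14. Cxcr2, the receptor of Cxcl1 and Cxcl2, had 249.7 and 250.9 FPKM in the NECA libraries, against 214 and 223 FPKM in the DMSO libraries. Ccr1, the receptor of Ccl6, Ccl9, Ccl3 and Ccl5, had 70.0 and 71.5 FPKM in the NECA libraries, against 51.9 and 61.4 FPKM in the DMSO libraries. For both receptors each NECA library was above each DMSO library, a pattern that 22.4% of all tested genes showed. Log2 fold changes were 0.19 for Cxcr2 (SE 0.05, adjusted p = 0.0792) and 0.31 for Ccr1 (SE 0.08, adjusted p = 0.072), so neither passed by edgeR. Neither passed in edgeR with library size alone (adjusted p = 0.263 for Cxcr2 and 0.131 for Ccr1) or with RLE, another scaling (0.0749 and 0.0728). Neither passed with a filter of 20 counts in 2 libraries (0.0881 and 0.0853). With limma on FPKM neither passed at either pseudocount (adjusted p = 0.225 to 0.261). Both passed with DESeq2 (adjusted p = 0.0154 for Cxcr2 and 0.0163 for Ccr1), without the filter on low counts (0.00679 and 0.000228), with the replicate block (0.0475 and 0.0156) and without NECA replicate 1 (0.0374 and 0.00174). Ccr1 also passed without NECA replicate 2 (adjusted p = 0.0138) and without DMSO replicate 2 (adjusted p = 0.0299), while neither passed without DMSO replicate 1. Cxcr2 ranged from 0.16 to 0.23 and Ccr1 from 0.20 to 0.44 with a library left out.

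Other receptors of members were scarce. Ccr2, the receptor of Ccl2, had 0.724 and 0.134 FPKM in the NECA libraries, against 0.963 and 0.767 FPKM in the DMSO libraries (log2 fold change -0.99, adjusted p = 0.366). Cxcr6, the receptor of Cxcl16, had at most 0.674 FPKM in any library (log2 fold change -0.62, adjusted p = 0.72). Cxcr3, with 7 and 2 counts in the NECA libraries against 6 and 9 counts in the DMSO libraries, was too low to test. The 1 receptor that fell was Ccr3, an eotaxin receptor of eosinophils and basophils that also binds Ccl5, at 1.70 and 1.42 CPM with NECA, against 5.49 and 5.52 CPM with DMSO (log2 fold change -1.81, SE 0.30, adjusted p = 0.0142). Ccr3 is also the 1 lower marker of basophils, mast cells and eosinophils counted above. The call of Ccr3 was lost without DMSO replicate 1 (adjusted p = 0.0925) and without DMSO replicate 2 (adjusted p = 0.0655).

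**Figure D4:**
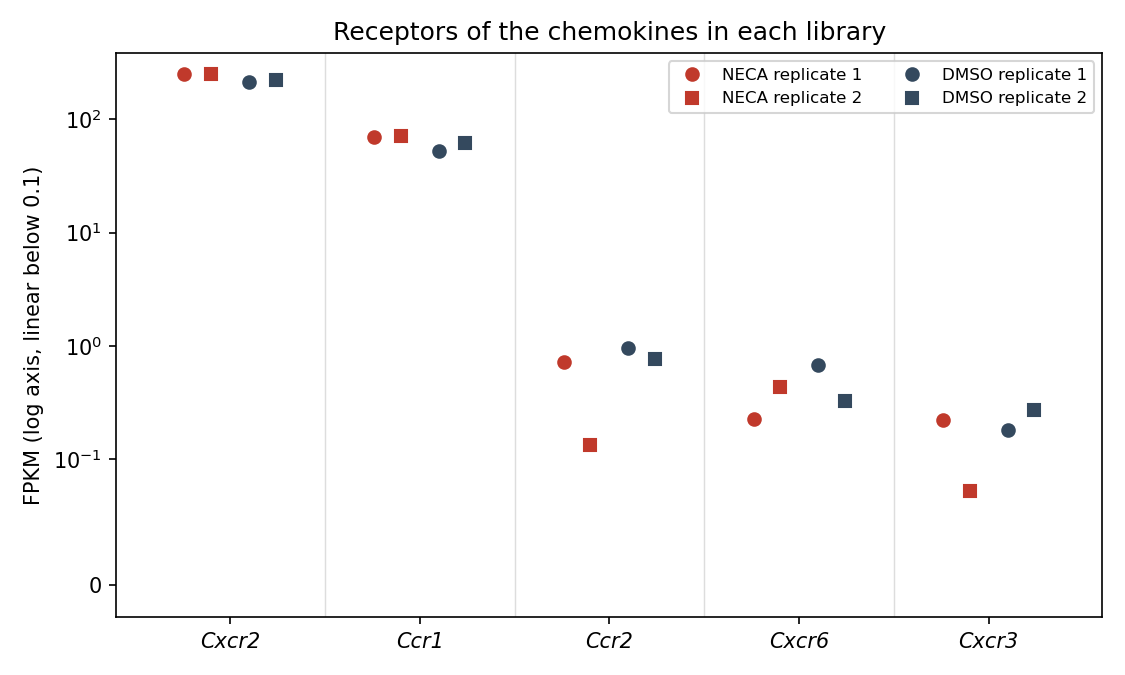
FPKM of 5 receptors of the members in each library (log axis, linear below 0.1), NECA in red and DMSO in dark blue, circles for replicate 1 and squares for replicate 2. Cxcr2 and Ccr1 stood at 51.9 to 250.9 FPKM, and Ccr2, Cxcr6 and Cxcr3 stayed below 1 FPKM in every library.

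Of 31 further chemokine ligand genes, 18 had 0 counts in all 4 libraries and 2 were tested, with 0 called. Ccl25, a ligand of Ccr9, had 3.57 and 3.81 CPM in the NECA libraries, against 5.07 and 4.30 CPM in the DMSO libraries (log2 fold change -0.34, adjusted p = 0.599). Pf4, a platelet CXC chemokine, had 4 and 4 counts in the NECA libraries, against 13 and 13 counts in the DMSO libraries (log2 fold change -1.50, adjusted p = 0.352). Like Ccl5, Pf4 passed the filter through the DMSO libraries alone. Platelet markers, Pf4 among them, summed to 5.00 and 4.72 CPM with NECA, against 8.15 and 6.21 CPM with DMSO. Ccl27a, too low to test, had 16 and 6 counts in the NECA libraries, against 6 and 3 counts in the DMSO libraries, and shares 45.0% of its 50-base words with annotated copies. These 3 led by CPM. Per length, Ccl24 (0.248 FPKM over the 4 libraries) and Ppbp (0.218 FPKM) stood above Ccl27a (0.183 FPKM), and both were added after their values were seen. Ccl24 had 7 and 1 counts in the NECA libraries, against 12 and 4 counts in the DMSO libraries, and Ppbp had 1 and 0 counts in the NECA libraries, against 13 and 4 counts in the DMSO libraries. Counts of Ccl25 are uncertain beside the opposite-strand gene Elavl1.

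Genes that act before and after chemokines were read from lists. Of 23 tested genes of NF-kB and inflammatory induction, which include the factors that drive Cxcl2, Ccl3 and Cxcl10, 0 rose and 0 fell by edgeR or DESeq2, with a median log2 fold change of -0.005. At an unadjusted p under 0.05, 2 were higher and 2 lower, where 15.7% of all tested genes passed in either direction. Of 17 tested interferon-response genes, 0 rose and 1 fell, with a median of -0.38, and 15 were below 0. At an unadjusted p under 0.05, 9 were lower and 0 higher, where 8.88% of all tested genes were lower. They include Mx1, which passed the filter through the DMSO libraries alone. The gene that fell at an adjusted p under 0.05 was Irf7, a transcription factor of the interferon response. Irf7 stood at 47.0 and 45.1 CPM with NECA, against 59.6 and 60.5 CPM with DMSO. Its log2 fold change was -0.38 (SE 0.08, adjusted p = 0.038, edgeR). The opposite-strand gene Phrf1 overlaps 45 of its exon bases. Irf7 missed the threshold when NECA replicate 2, DMSO replicate 1 or DMSO replicate 2 was left out (adjusted p = 0.0756, 0.125 and 0.139), and without NECA replicate 1 the list had 7 lower members. Of 8 tested genes for proteins that cut or shed chemokines, 2 rose and 0 fell. These were the matrix proteases Mmp8 (log2 fold change 0.23, adjusted p = 0.0254) and Mmp9 (log2 fold change 0.23, adjusted p = 0.0126), which neutrophils store in granules. Without DMSO replicate 1 neither passed (adjusted p = 0.157 and 0.0754), and without DMSO replicate 2 Mmp9 did not (adjusted p = 0.052). With scaling by library size alone neither passed (adjusted p = 0.0837 and 0.0556). Both genes are also in the list of neutrophil markers, whose median log2 fold change was 0.14.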

How the data were processed

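Libraries were made with SMARTer chemistry, PCR and fragmentase and sequenced as read pairs, per the labels' protocols. The authors deposited 2 columns per library, per the file headers: read counts of genes, in whole numbers, and FPKM. The submitters' processing notes name HISAT, StringTie and edgeR, without roles, and mm10 and GRCm38 as builds. Annotation, strand and the handling of shared reads are not stated there. Deposited counts were filtered with filterByExpr (minimum count 10), scaled by TMM and tested with edgeR 4.0.16 (quasi-likelihood, 2 residual degrees of freedom, no block) in R 4.3.3, adjusted by Benjamini-Hochberg over 13083 genes at 0.05. SE is the absolute log2 fold change over the square root of the F statistic. An exact permutation test of 2 against 2 libraries cannot go below p = 0.333. DESeq2 1.42.0 and limma 3.58.1 on log2(FPKM + 0.1) and log2(FPKM + 1) were alternatives. Positions and overlaps come from GENCODE M21 and promoters from RefSeq. Named genes were the members, their receptors and sheddases, called genes of the lists and the 3 other ligands with the highest mean CPM, except 1 gene that is not reported here. Motifs were chosen after the windows were read. The members and lists were chosen with earlier results of these data known. Replicates of a group were not copies of 1 library (chi-square over its degrees of freedom: NECA 5.38, DMSO 6.78).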

Additional observations from a re-analysis of the deposited data

How the results depend on the processing

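All 5 tested members kept log2 fold changes below 0 under every alternative run, and the call changed for Ccl3 alone: without the filter on low counts (22344 genes) Ccl3 stood at -1.05 with adjusted p = 0.0147, so that 1 member was lower, and 0 to 1 members were lower with a library left out. The cause was not tested. With a filter of 20 counts in 2 libraries, Ccl5 was not in the fit. On log2(FPKM + 1), Ccl5 stood at -0.74, since the pseudocount exceeds its level. In the fit without a filter, Ccl4 stood at -0.59, Cxcl10 at -1.58 and Cxcl16 at 0.23 (adjusted p = 0.846, 0.828 and 0.948). Ccl2, with counts in DMSO replicate 1 alone, stood at -4.77 in that edgeR fit (adjusted p = 0.632).

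Over all genes, 46 were higher and 128 lower. Counts were 21 and 217 with library size alone, which shifted the median gene to -0.08 and put 8.82% of calls on the higher side, against 26.4% with TMM, 130 higher with DESeq2 (46.1% of its calls), 285 and 590 without the filter, and 1 and 0 with limma on FPKM at either pseudocount. With a library left out, 8 to 227 genes were higher and 45 to 594 lower, on the assumption that the lone library varies like the other group. With the replicate block they were 123 and 298, and no member was called. The labels do not say that the numbers pair libraries, so the main fit did not read them as pairs. Deviations of same-numbered libraries correlated at 0.0142, which cannot exclude a pairing that acts on some genes. At this depth the counting intervals of Ccl4, Cxcl10 and Cxcl16 included a ratio of 1, so a difference was neither shown nor excluded.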
